A study of Homo sapiens with 9 samples.

Results

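MCF10Ca1a, a tumour-forming human breast line, was compared with MCF10A, the non-tumorigenic mammary epithelial line at the root of the same lineage, over all genes with enough counts. The comparison used 6 of the 9 libraries of the series, 3 for each line. Genes were kept where at least 3 of the 6 libraries held 10 counts or more, and 16852 of the 62666 genes in the table met that rule. MCF10Ca1a descends from MCF10AT1, a line made by introducing an activated HRAS gene into MCF10A and passing the cells through mice, so it carries that gene and a history of growth as a tumour. MCF10AT1 was grown in 2.5% horse serum and enters only an alternative fit. Both lines compared here were grown in the same medium with 5% horse serum, insulin, EGF, hydrocortisone and cholera toxin, and neither received a treatment. Each line is an established culture, so the comparison is between 2 lines and not between a normal and a malignant tissue.

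The mammary gland duct has an inner layer of luminal cells, which make keratins 8, 18 and 19 and tight junctions, and an outer layer of basal cells, which make keratins 5 and 14 and contractile proteins and are fixed to the basement membrane by hemidesmosomes. MCF10A cells in culture have mostly basal traits and also make some mesenchymal proteins such as vimentin. Passage through the cell cycle is driven by cyclins and their kinases, and the genes for DNA replication and for mitosis are switched on in turn by E2F factors and by complexes of B-MYB and FOXM1. The latter act at promoters with cell cycle homology elements, where CCAAT boxes, the sites of NF-Y, are also common.

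The 3 MCF10A libraries held 64.2, 64.2 and 69.5 M counts (M, mega-counts) and the 3 MCF10Ca1a libraries 35.2, 32.9 and 35.2 M counts, so low levels were measured less precisely in MCF10Ca1a. Log2 CPM (counts scaled to library size) correlated across genes between libraries of the same line at a mean r of 0.997 to 0.998 and between lines at 0.904 to 0.907. Nothing in the labels says that the 3 libraries of a line came from separate cultures, so the p-values measure only the spread between these libraries. In bulk RNA, fewer cells of a kind and less RNA per cell cannot be told apart. The label of epithelial cell was checked against markers: KRT5, KRT8, KRT18 and CDH1 were present in all 6 libraries. Of 10 fibroblast markers 5 could be tested, with 0 higher and 4 lower (DCN, FAP, COL1A1 and PDPN), and their summed level was 92.9 to 102 TPM in MCF10A and 19.3 to 26.6 TPM in MCF10Ca1a. Of 10 endothelial markers 4 could be tested, with PECAM1 and EGFL7 higher and KDR and TEK lower (TEK not called by limma on log2(TPM + 1)), at a summed 3.1 to 4.57 TPM against 22 to 26.4 TPM, while CDH5 was at 0 in all 6 libraries. Among 10 immune markers 4 could be tested, with CD68 higher and 3 lower, at a summed 18.8 to 26.4 TPM against 31.2 to 34.2 TPM, and the T-cell marker CD3E was at 0 throughout. Among 10 neural and melanocyte markers 4 could be tested, with 3 higher and 1 lower, at a summed 99.6 to 130 TPM against 102 to 107 TPM, and SOX10 was at 0 in all libraries. FAP and TEK were named after their values were seen.

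Expression differed over most of the transcriptome. Of the 16852 genes, 13702 (81.3%) passed edgeR's quasi-likelihood test at a Benjamini-Hochberg adjusted p of 0.05, 6702 higher in MCF10Ca1a (39.8%) and 7000 lower (41.5%). A change of at least 2-fold in addition was met by 7118 genes (42.2%), 3487 higher (20.7%) and 3631 lower (21.5%), and 871 genes were higher and 950 lower at least 8-fold. The CPM values of the lines did not overlap for 14001 genes (83.1%). The median log2 change over all genes tested was -0.03 and the median absolute change was 0.81. A count of members called in a list is therefore read against these shares, and a list with near equal numbers up and down is near the background. All log2 changes below are MCF10Ca1a minus MCF10A from the edgeR fit on counts, and all levels are deposited TPM (transcript abundance scaled for gene length and library size), given for replicates 1, 2 and 3 in turn.

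**Figure D1:**
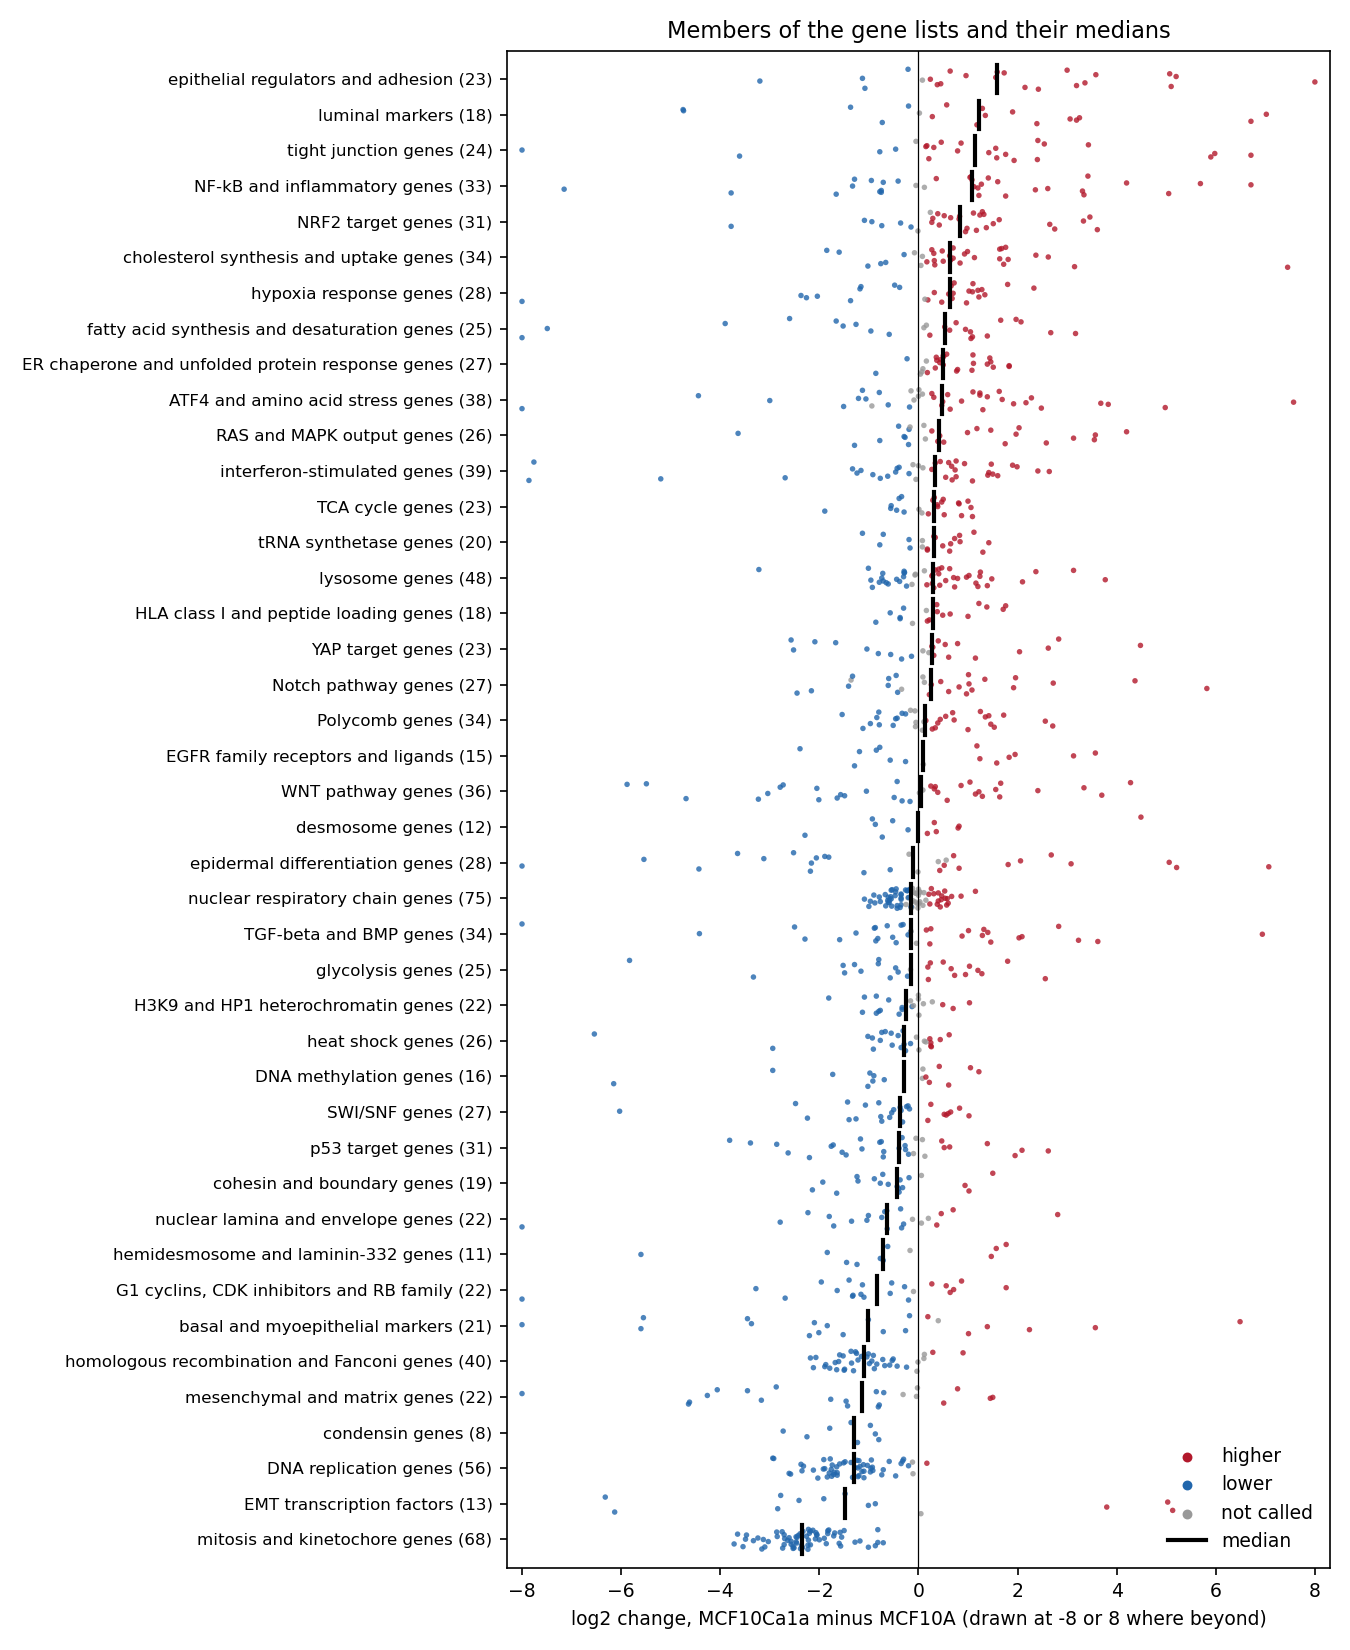
Log2 change, MCF10Ca1a minus MCF10A, of every tested member of 42 gene lists (points), with the median of each list (black bar) and the number of tested members in brackets. Red points were higher, blue points lower and grey points not called at an adjusted p of 0.05, and values beyond -8 or 8 are drawn at those limits. Mitosis and kinetochore genes sit farthest to the left with a median of -2.34, and epithelial regulators farthest to the right with 1.59.

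Of the lists in the plot of medians, the one with the largest shift was cell division, and it was downward in the tumour line. Of 68 mitosis and kinetochore genes, 0 were higher and 68 lower, 64 of them at least 2-fold, with a median log2 change of -2.34 against -0.03 for all genes. Their summed level was 7199 to 7762 TPM in the MCF10A libraries and 1869 to 1889 TPM in the MCF10Ca1a libraries. All 68 were called lower with any of the 6 libraries left out, and 67 on the length-scaled counts and on TPM. CENPN, a kinetochore gene named here after its values were seen, had the smallest change on counts (-0.71) and overlapped between the lines on TPM, at 59.6, 60 and 62.8 TPM in MCF10A and 64.9, 62.7 and 68.6 TPM in MCF10Ca1a. CENPF, a protein of the outer kinetochore, had the largest fall, -3.72.

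The promoters of 5 mitosis genes are printed to show where their letters match the CCAAT box or the core of the cell cycle homology element. Each is the 250 bases before the RefSeq transcript start on GRCh38.p14, 5′ to 3′ on the strand of the gene, in lower case. Capitals mark a match, on either strand, to CCAAT or to TTTGAA, the core of the cell cycle homology element. CCNB1 lies at chr5:69166900-69167149 (plus strand), PLK1 at chr16:23678639-23678888 (plus), BUB1B at chr15:40160819-40161068 (plus), CDK1 at chr10:60778081-60778330 (plus) and AURKB at chr17:8210226-8210475 (minus).
CCNB1: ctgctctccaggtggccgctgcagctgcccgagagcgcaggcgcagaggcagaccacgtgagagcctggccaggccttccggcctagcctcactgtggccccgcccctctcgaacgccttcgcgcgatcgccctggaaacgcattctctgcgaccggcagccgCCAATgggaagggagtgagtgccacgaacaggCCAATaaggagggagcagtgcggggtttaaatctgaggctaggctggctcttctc
PLK1: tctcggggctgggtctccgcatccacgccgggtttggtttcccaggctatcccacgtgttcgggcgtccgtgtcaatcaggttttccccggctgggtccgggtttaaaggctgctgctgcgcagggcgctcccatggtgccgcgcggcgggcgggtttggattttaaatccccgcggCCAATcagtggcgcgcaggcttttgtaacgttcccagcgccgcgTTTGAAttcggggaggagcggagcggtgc
BUB1B: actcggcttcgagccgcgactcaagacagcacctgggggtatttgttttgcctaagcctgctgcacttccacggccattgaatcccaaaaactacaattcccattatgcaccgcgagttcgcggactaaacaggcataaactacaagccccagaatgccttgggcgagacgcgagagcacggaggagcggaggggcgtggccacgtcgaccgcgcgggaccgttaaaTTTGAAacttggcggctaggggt
CDK1: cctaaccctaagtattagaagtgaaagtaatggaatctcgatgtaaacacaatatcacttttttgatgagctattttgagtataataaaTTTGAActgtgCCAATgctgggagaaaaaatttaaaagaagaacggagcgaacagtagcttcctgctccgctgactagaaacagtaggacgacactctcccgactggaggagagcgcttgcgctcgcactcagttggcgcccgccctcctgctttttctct
AURKB: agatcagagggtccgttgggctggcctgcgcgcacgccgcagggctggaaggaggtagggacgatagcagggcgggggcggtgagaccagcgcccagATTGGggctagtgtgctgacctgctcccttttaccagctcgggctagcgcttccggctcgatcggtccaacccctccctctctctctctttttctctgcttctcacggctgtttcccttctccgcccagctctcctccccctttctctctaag
Counted from the start site, CCNB1 had CCAAT boxes at -87 and -55, PLK1 a CCAAT box at -73 and TTTGAA at -29, and BUB1B TTTGAA at -23. CDK1 had a CCAAT box at -150 and TTTGAA at -161, and AURKB a CCAAT box at -153, read on the other strand. Over windows of 300 bases, from 250 before to 50 after the start, 58 of the 68 mitosis genes had a promoter in the RefSeq table. TTTGAA was found in 36 of these (62.1%) against 10.1% of the 11597 promoters of all genes tested. CCAAT was found in 43 (74.1%) against 36.7%, and both in 29 (50%) against 4.32%. Among 47 promoters of DNA replication genes, TTTGAA was found in 3 (6.38%) and CCAAT in 27 (57.4%). Both motifs were searched on both strands and do not overlap one another in sequence. A match is a description of the letters and not of binding.

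CCNB1, the cyclin that starts mitosis with CDK1, stood at 463, 473 and 474 TPM in MCF10A and 42.4, 41.3 and 40.9 TPM in MCF10Ca1a. The lines did not overlap, and the log2 change was -3.54 ± 0.0705 (SE; edgeR adjusted p = 1.05e-10). PLK1, a kinase of mitotic entry and spindle assembly, stood at 173, 141 and 131 TPM against 11.9, 11.4 and 13.4 TPM, a log2 change of -3.65. Of these genes CDK1, the partner kinase of CCNB1, fell least: 425, 475 and 494 TPM against 107, 109 and 107 TPM, a log2 change of -2.18 (SE 0.0948). AURKB, the kinase of the chromosomal passenger complex, fell by 2.53 on the log2 scale, and BUB1B, a spindle checkpoint protein, had a change of -2.34. FOXM1, the forkhead factor that drives this programme, stood at 72.8, 60.7 and 54.9 TPM in MCF10A and at 9.92, 10.9 and 10 TPM in MCF10Ca1a, a log2 change of -2.64 (edgeR adjusted p = 3.28e-10).

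Genes that copy and repair DNA were lower too, by less. Among 56 DNA replication genes, 1 was higher and 53 lower, with a median log2 change of -1.30. The 1 higher member was RFC1, the large subunit of the clamp loader, whose log2 change was 0.17 ± 0.0546 (SE; edgeR adjusted p = 0.0146), a call lost in 7 of 19 alternatives, among them without MCF10A replicate 3 or MCF10Ca1a replicate 2 and on thinned or length-scaled counts. TYMS, which makes thymidylate, stood at 190, 178 and 168 TPM in MCF10A and 25.1, 25.5 and 21.9 TPM in MCF10Ca1a, a log2 change of -2.92. PCNA, the sliding clamp of the replication fork, was at 364, 376 and 391 TPM against 126, 132 and 128 TPM, a log2 change of -1.65. Neither gene overlapped between the lines. RRM2, a subunit of ribonucleotide reductase, changed by -0.95 and MCM2, of the replicative helicase, by -0.71. Of 40 homologous recombination and Fanconi genes, 2 were higher and 34 lower, with a median of -1.10. FANCD2 fell by 1.87 and BRCA1 by 1.49 on the log2 scale. All 8 condensin genes were lower, with a median of -1.30, among them NCAPH at 56.4, 45.4 and 42.9 TPM against 8.87, 9.25 and 8.26 TPM.

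Kinesins and tubulins, the motors and the building blocks of microtubules, were mostly lower. Of 30 kinesin genes tested, 4 were higher and 23 lower, with a median log2 change of -1.88 (-0.87 by limma on log2(TPM + 1)). KIF14, a motor of cytokinesis, fell by 3.49, and KIF13B, a transport motor, rose by 1.93. Of 13 tubulins, 2 were higher and 10 lower, with a median of -1.03. TUBA1A stood at 98.4, 96.1 and 98.5 TPM in MCF10A and 1.23, 0.789 and 0.889 TPM in MCF10Ca1a, a log2 change of -6.87 with an SE of 0.101 (edgeR adjusted p = 2.33e-11). Reads of near-identical tubulin copies can be shared between them, so the split within the family is uncertain. Replication-dependent histones went the other way: of 28 tested of 69, 15 were higher and 2 lower, with a median of 1.14 (0.72 by limma on log2(TPM + 1)). These genes also have near-identical copies, and their main transcripts lack a poly-A tail and are only partly captured by a poly-A library. H2BC21 stood at 1.01, 0.965 and 1.07 TPM against 18.2, 16.8 and 16.4 TPM, a log2 change of 3.98.

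Regulators of G1 and targets of p53 were mostly lower. Of 22 tested G1 cyclins, CDK inhibitors and RB family genes, 6 were higher and 15 lower, with a median log2 change of -0.84. CCND2, a D-type cyclin, had 1522, 1257 and 1449 counts in MCF10A and 1, 0 and 0 counts in MCF10Ca1a. Taking 3 counts per library as the floor, its level was at least 240-fold lower in MCF10Ca1a. CCND1, another D-type cyclin, lost its call without any 1 of the 3 MCF10Ca1a libraries and by limma on TPM, and overlapped between the lines, at 86.5, 70.4 and 62.8 TPM against 68.3, 66 and 66.4 TPM. Among the INK4 inhibitors of CDK4 and CDK6, CDKN2C fell by 3.28 on the log2 scale and CDKN2D rose by 1.77, and CDKN1B, which inhibits CDK2, fell by 1.64. CDKN1A, the p53-induced inhibitor, was not called, with a log2 change of -0.10 with an SE of 0.0539 (edgeR adjusted p = 0.119), but was called lower in 4 of 19 alternatives, without MCF10A replicate 3, without a filter on low counts, and on length-scaled and scaled counts. Of 31 p53 target genes, 7 were higher and 20 lower, with a median of -0.39. GADD45A, a growth arrest and repair protein, stood at 41.7, 39.5 and 39.1 TPM in MCF10A and 247, 256 and 242 TPM in MCF10Ca1a, while TP53I3, a quinone oxidoreductase, went from 125, 115 and 106 TPM to 11.9, 10.1 and 12.9 TPM. SESN1, a sestrin, fell by 2.86 and GDF15, a stress cytokine, rose by 2.09.

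Luminal genes were mostly higher and basal genes mostly lower, with exceptions on each side. Of 18 luminal markers tested, 12 were higher and 5 lower, with a median log2 change of 1.23 (0.68 by limma on log2(TPM + 1)). Of 21 basal and myoepithelial markers tested, 6 were higher and 14 lower, with a median of -1.01 that ranged from -1.14 to -0.12 over the alternatives. KRT8 stood at 130, 105 and 96.5 TPM in MCF10A and 441, 432 and 452 TPM in MCF10Ca1a, a log2 change of 1.90. Its partner KRT18 changed by 1.35, and KRT19, a keratin of luminal and progenitor cells, rose from 2, 6 and 3 counts to 270, 250 and 243 counts. CLDN4, a claudin of luminal tight junctions, went from 1.38, 1.16 and 0.732 TPM to 154, 153 and 161 TPM, a log2 change of 6.71 with an SE of 0.0985 (edgeR adjusted p = 2.33e-11). FOXA1, a luminal forkhead factor, rose by 3.25. Against this direction, MUC1, the apical mucin, stood at 43.8, 36 and 31.5 TPM against 1.12, 1.71 and 1.44 TPM, and SLPI, a secreted protease inhibitor, fell by 1.37. The luminal marker ELF5, and KIT and PGR, which were named after their values were seen, had at most 2 counts in any library.

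KRT14, a basal keratin, stood at 241, 199 and 176 TPM in MCF10A and 4.7, 4.94 and 4.7 TPM in MCF10Ca1a, a log2 change of -5.60 (SE 0.0902). KRT5, its usual partner, fell less: 1698, 1363 and 1210 TPM against 411, 422 and 426 TPM, a log2 change of -1.84. The contractile genes TAGLN and ACTA2 changed by -5.55 and -2.20. Other basal markers were higher in MCF10Ca1a. KRT15 went from 41.8, 30.1 and 27.4 TPM to 616, 590 and 595 TPM, and NGFR, the neurotrophin receptor of basal cells, from 27, 17 and 25 counts to 1106, 1013 and 1064 counts. TP63, the basal master factor, differed little, at 29.8, 25.5 and 22.7 TPM against 30.6, 31.9 and 30.9 TPM (log2 change 0.19, SE 0.0569, edgeR adjusted p = 0.0107), a call lost in 5 of 19 alternatives, among them without MCF10A replicate 3 and on length-scaled counts. The summed level of the basal list overlapped between the lines, at 3289 to 4328 TPM in MCF10A and 3673 to 3733 TPM in MCF10Ca1a. Over the keratin family, 24 of 68 genes were tested, 14 of them higher and 8 lower, with a median of 1.03 (0.43 by limma on log2(TPM + 1)), and KRT23 had the largest rise, from 7, 8 and 7 counts to 1278, 1296 and 1354 counts.

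Factors and adhesion genes of the epithelial state rose together with tight junction genes. Of 23 epithelial regulators and adhesion genes, 18 were higher and 4 lower, with a median log2 change of 1.59 and a summed level of 976 to 1215 TPM against 2960 to 3020 TPM. CDH1, E-cadherin, stood at 52.8, 38.4 and 33.4 TPM in MCF10A and 229, 227 and 238 TPM in MCF10Ca1a, a log2 change of 2.42 (SE 0.106). GRHL2, a grainyhead factor that maintains epithelial junctions, had 0 counts in all 3 MCF10A libraries and 523, 500 and 536 counts in MCF10Ca1a, at least 339-fold higher against a floor of 3 counts per library. Its relative GRHL3, a factor of terminal epidermal differentiation, moved the other way, by -3.20. OVOL1, a repressor of mesenchymal genes, rose by 5.20, and RAB25, a GTPase of epithelial recycling endosomes, by 5.07. The splicing regulators ESRP1 and ESRP2 changed little, by 0.38 and 0.45. Of 24 tight junction genes tested, 19 were higher and 4 lower, with a median of 1.14 (0.68 by limma on log2(TPM + 1)) and a summed 316 to 407 TPM against 853 to 869 TPM. Of 8 claudins tested, 7 were higher and 1 lower, with CLDN1 at 23.9, 19.9 and 17.8 TPM against 116, 115 and 108 TPM.

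**Figure D2:**
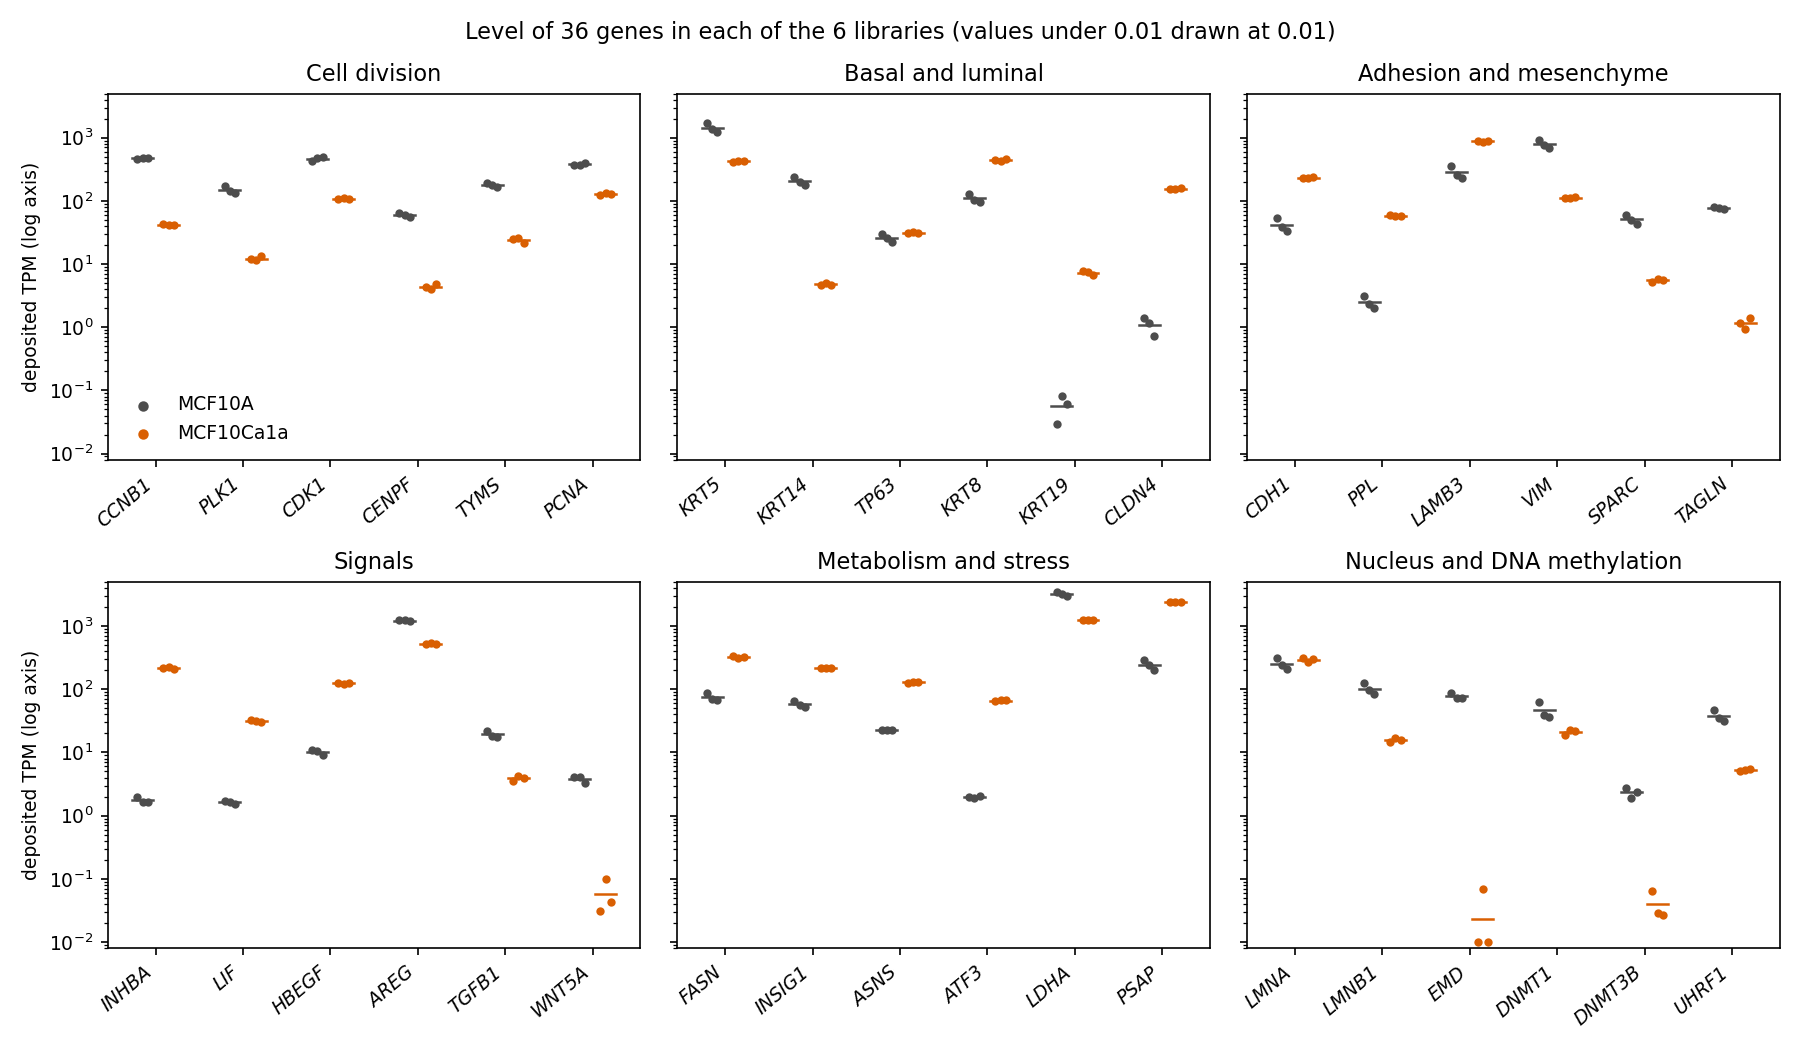
Deposited TPM on a log axis of 36 genes in each of the 3 MCF10A (grey) and 3 MCF10Ca1a libraries (orange), with 1 point per library, a line at the mean of each cell line, and values under 0.01 drawn at 0.01. CCNB1, KRT14, VIM and EMD lie lower in MCF10Ca1a and CLDN4, CDH1, INHBA and PSAP higher, while the points of LMNA overlap.

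Desmosomes anchor keratin filaments to neighbouring cells, and hemidesmosomes anchor them to the basement membrane. Of 12 desmosome genes tested, 6 were higher and 6 lower, with a median log2 change of -0.01. PPL, the linker periplakin, rose from 3.16, 2.3 and 1.99 TPM to 59.8, 57.6 and 56.9 TPM, a log2 change of 4.49, and DSC3, a basal desmocollin, fell from 38.8, 32.4 and 27.1 TPM to 6.72, 7.13 and 7.04 TPM, a change of -2.29. Of 11 hemidesmosome and laminin-332 genes, 3 were higher and 7 lower, with a median of -0.71. The list includes KRT5 and KRT14, described above among the basal keratins. Among them ITGB4 rose by 1.47 while its partner ITGA6 fell by 0.77 on the log2 scale. PLEC, which ties this integrin to keratin, rose by 1.77. LAMB3, a chain of laminin-332, stood at 362, 261 and 227 TPM against 883, 869 and 901 TPM, and LAMA3 was not called except without MCF10A replicate 3 or without a filter on low counts. Of 28 epidermal differentiation genes tested, 11 were higher and 13 lower. IVL and TGM1, of the cornified envelope, changed by -4.43 and -2.52, and S100A8 stood at 311, 364 and 399 TPM against 6.57, 6.67 and 10 TPM.

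Mesenchymal genes and most of the factors that drive the mesenchymal state were lower in the tumour line. Of 22 mesenchymal and matrix genes tested, 4 were higher and 15 lower, with a median log2 change of -1.14 and a summed level of 2438 to 3398 TPM against 750 to 782 TPM. VIM, the intermediate filament vimentin, stood at 919, 756 and 674 TPM in MCF10A and 111, 112 and 113 TPM in MCF10Ca1a, a log2 change of -2.87 with an SE of 0.0737 (edgeR adjusted p = 4.34e-10). SPARC, a matrix glycoprotein, fell by 3.45, FN1, fibronectin, by 1.77 and CDH2, N-cadherin, by 1.43. POSTN, periostin, had 461, 471 and 448 counts against 0 in all 3 MCF10Ca1a libraries and was thus at least 78.3-fold lower. LOX, which crosslinks collagen, and ITGA5, the fibronectin receptor chain, were among the 4 higher members, 2.82-fold and 2.74-fold.

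Of 13 EMT transcription factors tested, 3 were higher and 9 lower, with a median of -1.48 (-0.92 by limma on log2(TPM + 1)). TWIST2 had 1177, 1046 and 1268 counts in MCF10A and 7, 7 and 8 counts in MCF10Ca1a, and FOXC2 changed by -6.13. ZEB1 fell by 2.78, TWIST1 by 1.91 and SNAI2 by 1.01 on the log2 scale. The 3 higher factors were SNAI1 at 0.619, 0.595 and 0.354 TPM against 6.99, 8.1 and 7.8 TPM, FOXQ1 at 1.88, 1.38 and 1.42 TPM against 56.4, 56.6 and 56.8 TPM, and SOX9 at 3.68, 2.92 and 2.76 TPM against 106, 105 and 105 TPM. Since FOXQ1 and SOX9 rose from low levels, the summed level of the list was 168 to 196 TPM in MCF10A and 241 to 243 TPM in MCF10Ca1a although most members fell. Of 6 caveolin and cavin genes tested, which shape the small pits of the plasma membrane, 1 was higher and 5 lower, with a median of -1.42. CAVIN2 had 4943, 4555 and 4808 counts against 1, 3 and 1, and CAVIN3 fell by 3.02, while the higher member, CAVIN1, had a log2 change of 0.26 and lost its call in 7 of 19 alternatives, among them without MCF10A replicate 2 or 3 or MCF10Ca1a replicate 3 and on length-scaled counts. Among 22 collagens 10 were higher and 10 lower, COL12A1 rising by 3.46 and COL6A1 falling by 4.64.

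Genes induced by RAS and MAPK signalling, the route from receptors through RAF and MEK to ERK, were mostly higher: 15 of 26 were higher (57.7%, against 39.8% of all genes tested) and 8 lower (4 or 5 lower by limma on TPM), with a median log2 change of 0.41. LIF, a cytokine of the interleukin 6 family, went from 1.68, 1.65 and 1.52 TPM to 32.3, 31.5 and 30.4 TPM, a log2 change of 4.20 (SE 0.0586). HBEGF, an EGFR ligand, rose from 10.9, 10.4 and 9.06 TPM to 125, 123 and 125 TPM, and EPHA2, an ephrin receptor, from 43.8, 33.7 and 28.7 TPM to 439, 429 and 441 TPM. The direct feedback genes of ERK moved little: DUSP6 by 0.51, ETV4 by -0.27 (not called by limma on TPM), ETV5 by -0.29 and SPRY2 by -0.40 on the log2 scale, and SPRY4 was not called except without MCF10A replicate 1. HMGA2, a chromatin protein often raised in tumours, stood at 69.8, 63.9 and 62.7 TPM in MCF10A and 6.34, 6.55 and 6.38 TPM in MCF10Ca1a. Of 15 tested EGFR family receptors and ligands, 7 were higher and 7 lower (4 lower by limma on TPM). Among the ligands, EREG rose by 3.13 and AREG fell from 1249, 1228 and 1194 TPM to 521, 537 and 523 TPM. Among the receptors, ERBB2 and ERBB3 rose by 1.24 and 1.83, and EGFR changed by -0.26, a call lost by limma on TPM.

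Of 34 TGF-beta and BMP genes tested, 15 were higher and 17 lower, with a median log2 change of -0.16. INHBA, the activin A chain, stood at 1.96, 1.67 and 1.62 TPM in MCF10A and 221, 222 and 212 TPM in MCF10Ca1a, a log2 change of 6.94 with an SE of 0.0757 (edgeR adjusted p = 1.16e-11). TGFB2 and BMP2 rose by 2.83 and 3.62. TGFB1 fell by 2.50 on the log2 scale, and LTBP1, which holds latent TGF-beta in the matrix, had a change of -4.42. TGFBR3, the coreceptor that presents TGF-beta 2, had 1038, 897 and 939 counts against 0, 0 and 1, at least 163-fold lower. The signal carrier SMAD3 rose by 1.32, and its inhibitory target SMAD7, named after its value was seen, fell by 0.87.

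WNT pathway genes included 17 of 36 tested higher and 17 lower, and their median changed sign between alternatives. WNT7B, a ligand of the beta-catenin route, rose by 4.28, and FZD7, a receptor, went from 1.08, 0.99 and 0.654 TPM to 12.6, 11.9 and 12.5 TPM. WNT5A, a ligand of the beta-catenin-independent route, had 675, 602 and 600 counts against 3, 9 and 4 counts. Of 27 Notch genes, 15 were higher and 8 lower, with a median of 0.26. The receptor NOTCH3 rose by 4.37, from 35, 39 and 32 counts to 436, 305 and 385 counts, and the ligand JAG1 rose by 1.92, while NOTCH1 and the target HEY1 were not called. NOTCH1 was called without MCF10A replicate 1, and HEY1 in 4 of 19 alternatives, among them without MCF10A replicate 1 or MCF10Ca1a replicate 1. HEY2, another target, named after its values were seen, had 0, 0 and 1 counts against 14, 11 and 18 counts. YAP targets, which report cell spreading and tension, included 12 of 23 higher and 9 lower. The best known of them, CCN1 and CCN2, fell by 0.56 and 0.81 on the log2 scale, and IGFBP3, a carrier of insulin-like growth factors, rose from 0.734, 0.587 and 0.668 TPM to 14.6, 16 and 14.7 TPM. Of 26 semaphorins and plexins, guidance ligands and their receptors, 15 were higher and 8 lower, with SEMA3B at 0.987, 1.05 and 0.738 TPM against 51.8, 50.5 and 46.9 TPM.

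Inflammatory genes were mostly higher. Of 33 tested NF-kB and inflammatory genes, 20 were higher and 11 lower, with a median log2 change of 1.08 and a summed level of 2022 to 2234 TPM against 3988 to 4014 TPM. IL33, a nuclear alarmin cytokine, went from 33, 25 and 29 counts to 1569, 1604 and 1495 counts, a log2 change of 6.71 (SE 0.0988). LCN2, an iron carrier of epithelia under stress, rose by 5.69, and CXCL8, a neutrophil attractant, stood at 86.1, 99.7 and 108 TPM against 493, 511 and 516 TPM. IL1B rose by 1.12 and TNFAIP3, a brake on the pathway, by 1.06. ICAM1, the leukocyte adhesion receptor, had 1743, 1545 and 1513 counts in MCF10A and 5, 5 and 7 counts in MCF10Ca1a. CSF3, the granulocyte growth factor, fell from 164, 146 and 137 TPM to 12, 11.1 and 11.8 TPM. Of 39 tested interferon-stimulated genes, 21 were higher and 14 lower, with a median of 0.34. ISG15, a ubiquitin-like protein, rose by 2.64, and TRIM22, an antiviral ligase, had 2413, 2571 and 2759 counts against 4, 7 and 7. Of 18 HLA class I and peptide loading genes, 11 were higher and 5 lower, with a median of 0.29. TAP1, the peptide transporter, and PSMB10, an immunoproteasome subunit, rose by 1.76 and 1.71, and B2M, the light chain, was not called except without MCF10A replicate 1 or without a filter on low counts.

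Lipid synthesis genes were mostly higher. Of 34 cholesterol synthesis and uptake genes, 25 were higher and 6 lower, with a median log2 change of 0.64 and a summed level of 3697 to 4204 TPM against 5790 to 5863 TPM. INSIG1, the sterol sensor that holds SREBP in the endoplasmic reticulum, stood at 65, 56.6 and 53.2 TPM in MCF10A and 219, 219 and 218 TPM in MCF10Ca1a, a log2 change of 1.81 (SE 0.0496). HMGCS1, an early synthesis enzyme, rose by 0.50. The sterol exporters ABCA1 and ABCG1, targets of LXR, rose as well: ABCA1 from 3, 6 and 11 counts to 619, 556 and 649 counts, and ABCG1 by 3.15. Of 25 fatty acid synthesis and desaturation genes, 14 were higher and 9 lower, with a median of 0.53. FASN, the fatty acid synthase, went from 87.3, 69.7 and 67.2 TPM to 333, 313 and 324 TPM, and SCD, the stearoyl-CoA desaturase, from 267, 213 and 181 TPM to 902, 900 and 904 TPM. The lines did not overlap at either gene. ACSS2, which makes acetyl-CoA from acetate, rose by 2.67. FADS2, the desaturase of polyunsaturated fatty acids, fell by 3.90, and ACACB, the acetyl-CoA carboxylase at mitochondria, had 301, 268 and 290 counts against 1, 0 and 0, at least 48.7-fold lower.

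Energy metabolism was mixed. Of 25 glycolysis genes, 12 were higher and 12 lower. SLC2A1, the glucose transporter GLUT1, rose from 72.4, 57.9 and 45 TPM to 241, 235 and 254 TPM, and HK2, hexokinase, by 1.28, whereas LDHA, the lactate dehydrogenase chain, fell from 3456, 3214 and 3012 TPM to 1262, 1267 and 1248 TPM, a log2 change of -1.49 (SE 0.0626). PKM, pyruvate kinase, fell by 0.81. Of 28 hypoxia response genes, 18 were higher and 9 lower, with a median log2 change of 0.63. P4HA1, a collagen prolyl hydroxylase, rose by 2.33. ANGPTL4, an inhibitor of lipoprotein lipase, had 21637, 19232 and 18921 counts in MCF10A and 4, 4 and 7 in MCF10Ca1a, a log2 change of -10.97 with an SE of 0.154 (edgeR adjusted p = 1.92e-11). Of 23 TCA cycle genes, 14 were higher and 7 lower, with SDHA, of succinate dehydrogenase, up by 1.15 and FH, fumarase, at 287, 261 and 253 TPM against 74.9, 75.3 and 73.1 TPM. Of 75 nuclear genes of the respiratory chain, 18 were higher and 36 lower, with a median of -0.15 and a summed 23435 to 25416 TPM against 23211 to 23539 TPM.

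Genes of the amino acid, oxidative and endoplasmic reticulum stress responses were mostly higher. Of 38 ATF4 and amino acid stress genes, 22 were higher and 10 lower, with a median log2 change of 0.48. ASNS, asparagine synthetase, stood at 22.4, 22.9 and 22.5 TPM in MCF10A and 127, 132 and 131 TPM in MCF10Ca1a, a log2 change of 2.48 (SE 0.0613). ATF3, a stress-induced factor, went from 2, 1.91 and 2.06 TPM to 64.9, 66.9 and 66.9 TPM, and CHAC1, which breaks down glutathione, rose by 3.83. PHGDH, the first enzyme of serine synthesis, and TRIB3 rose by 1.69 and 1.63. The mRNA of ATF4, which is controlled mainly at translation, was lower by a small amount (log2 change -0.18, SE 0.0553, edgeR adjusted p = 0.0112), a call lost without MCF10Ca1a replicate 2 and by limma on TPM. ALDH1L2, the folate enzyme of mitochondria, had 6781, 6187 and 6265 counts against 3, 5 and 5. Of 31 NRF2 targets, 23 were higher and 6 lower, with a median of 0.83 and a summed 6278 to 6673 TPM against 11023 to 11326 TPM. HMOX1, haem oxygenase, rose by 3.33, AKR1B10 and OSGIN1 by 3.61 and 3.46, and SLC7A11, the cystine transporter, by 1.24, whereas CBR3, a carbonyl reductase, fell by 3.78.

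Of 27 ER chaperone and unfolded protein response genes, 21 were higher and 2 lower, with a median log2 change of 0.50. HSPA5, the main chaperone BiP, stood at 417, 331 and 274 TPM against 934, 946 and 948 TPM, and HERPUD1, of the degradation complex, rose by 1.83. CALR, calreticulin, was 1 of the 2 lower members, at -0.86. Cytosolic heat shock genes leaned the other way, with 6 of 26 higher and 16 lower and a median of -0.30. HSPA8, the constitutive HSP70, fell from 2848, 2760 and 2621 TPM to 1383, 1391 and 1409 TPM, HSPA1A fell by 0.77, and HSPB1 rose by 0.62. Of 48 lysosome genes, 27 were higher and 17 lower, with a median of 0.29 and a summed 3281 to 3926 TPM against 6615 to 6765 TPM. PSAP, the precursor of the saposins, stood at 291, 241 and 205 TPM in MCF10A and 2384, 2369 and 2436 TPM in MCF10Ca1a, a log2 change of 3.13 (SE 0.0883). The proteases CTSD and CTSS rose by 2.10 and 3.77, and SGSH, a sulfatase of heparan sulfate, fell by 3.22. Of 20 cytosolic tRNA synthetases, 13 were higher and 5 lower, with a median of 0.32, and WARS1 fell by 1.13.

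Genes that shape the nucleus and the genome were mostly lower. Of 22 nuclear lamina and envelope genes, 4 were higher and 15 lower, with a median log2 change of -0.64 (-0.31 by limma on log2(TPM + 1)). LMNB1, lamin B1, stood at 124, 97.5 and 83.2 TPM in MCF10A and 14.4, 17.1 and 15.9 TPM in MCF10Ca1a, a log2 change of -2.79. LMNA overlapped between the lines, at 309, 244 and 209 TPM against 313, 269 and 302 TPM (log2 change 0.06, SE 0.08, edgeR adjusted p = 0.476), and was called without MCF10A replicate 1. EMD, the lamina-binding protein emerin, had 3580, 3409 and 3825 counts against 0, 1 and 0, at least 613-fold lower. Of 19 cohesin and boundary genes, 3 were higher and 15 lower, with a median of -0.43. RAD21, the cleavable cohesin subunit, fell by 1.93, SMC1A by 1.22 and ESCO2, which acetylates cohesin in S phase, by 2.14, while CTCF changed by -0.39 (not called by limma on log2(TPM + 1)) and ZNF143, a promoter looping factor, was 2.83-fold higher.

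Of 22 H3K9 methylation and HP1 genes, 3 were higher and 12 lower, with a median log2 change of -0.25. SUV39H1, an H3K9 methyltransferase, fell by 1.81 and CBX5, HP1 alpha, by 0.80. Polycomb genes included 17 of 34 higher and 11 lower, with a median of 0.13 that was -0.01 at its lowest over the alternatives. CBX7, a reader of H3K27 methylation, rose by 2.71, and KDM6B, which removes that mark, by 2.56, while EZH2, which writes it, fell by 0.97. Of 16 DNA methylation genes, 6 were higher and 8 lower. UHRF1, which brings the maintenance enzyme to replicated DNA, stood at 46.7, 35.5 and 31.6 TPM against 5.03, 5.34 and 5.39 TPM, and that enzyme, DNMT1, at 63.1, 39.1 and 36.9 TPM against 19.2, 22.5 and 21.9 TPM. DNMT3B, a de novo methyltransferase, had 390, 353 and 407 counts against 2, 3 and 3. It was at least 65.1-fold lower against a floor of 3 counts per library. TET3, which oxidises methylcytosine, rose by 1.22. Of 27 SWI/SNF genes, 8 were higher and 19 lower, with a median of -0.37. The ATPase SMARCA4 rose by 0.83 and ARID1B fell by 1.40 on the log2 scale.

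By amount of RNA, the 6 largest rises were in RPS6, S100A14, RPL13, RPL37, PSAP and S100P. RPS6, RPL13 and RPL37, ribosomal proteins, rose from means of 3020 ± 366, 2545 ± 80.8 and 2740 ± 277 TPM to 6374 ± 45.4, 5798 ± 96.8 and 4968 ± 85.9 TPM (SD, n = 3 in each line). Of 84 cytosolic ribosomal protein genes, 24 were higher and 25 lower, with a median log2 change of -0.11, and 48 were lower without MCF10A replicate 1. The summed level of the family was 196333 to 228909 TPM in MCF10A and 230669 to 233573 TPM in MCF10Ca1a. S100A14 stood at 791, 709 and 634 TPM against 4001, 3880 and 4090 TPM, and S100P, a calcium-binding protein common in carcinomas, at 48.8, 51.6 and 59.1 TPM against 2051, 2076 and 2110 TPM. S100A2, a basal family member, fell from 9919, 10418 and 11106 TPM to 4165, 4056 and 4260 TPM. Over the family, 4 of 15 were higher and 8 lower, and 7 were higher without MCF10A replicate 3. MT2A, a metallothionein, fell from 7680, 6404 and 6334 TPM to 2019, 1829 and 2109 TPM, and TMSB10, an actin-binding thymosin, by 0.88 on the log2 scale. The falls of MTATP8P1, MTCO3P12 and MTATP6P1 (log2 changes of -1.23, -0.96 and -1.07) are in nuclear copies of mitochondrial genes, which can share reads with the mitochondrial genome, so their source is uncertain.

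A smaller group of genes was detected in only 1 of the lines. With at most 3 counts in each of the 3 libraries of a line, and 100 counts or more on average in the other, 36 genes were found in MCF10Ca1a only (0.214% of those tested) and 167 in MCF10A only (0.991%). The deeper MCF10A libraries give more genes a mean of 100 counts, and after thinning all 6 libraries to the smallest total the numbers were 58 and 105. Of the 36 and 167 genes, 15 and 70 were at 0 in all 3 libraries of the other line, and 26 and 155 were protein coding.

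CALB2, calretinin, a calcium-binding protein of neurons and mesothelium, had 9307, 8692 and 9379 counts in MCF10Ca1a and 3 in each MCF10A library. Its fitted log2 change was 12.46. PRSS22, an airway epithelial serine protease, had 1494, 1390 and 1498 counts against 1, 2 and 3, and TMPRSS15, enteropeptidase of the duodenum, 1227, 1180 and 1219 counts against 2, 0 and 0. They were at least 953-fold and 789-fold higher. CDH19, a cadherin of Schwann cell precursors, had 508, 509 and 536 counts against 0 in every MCF10A library. In the other direction, IGFBP7, a secreted binding protein, had 4027, 4048 and 4118 counts in MCF10A and 3, 1 and 0 in the other line, a fall of at least 691-fold. KCNJ15, a potassium channel, had 2488, 2586 and 2751 counts against 0, 0 and 1, and CD70, the ligand of CD27, 1628, 1697 and 1895 counts against 1, 2 and 0. ITGA4, an integrin chain, had 566, 498 and 515 counts against 0 in all 3.

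**Figure D3:**
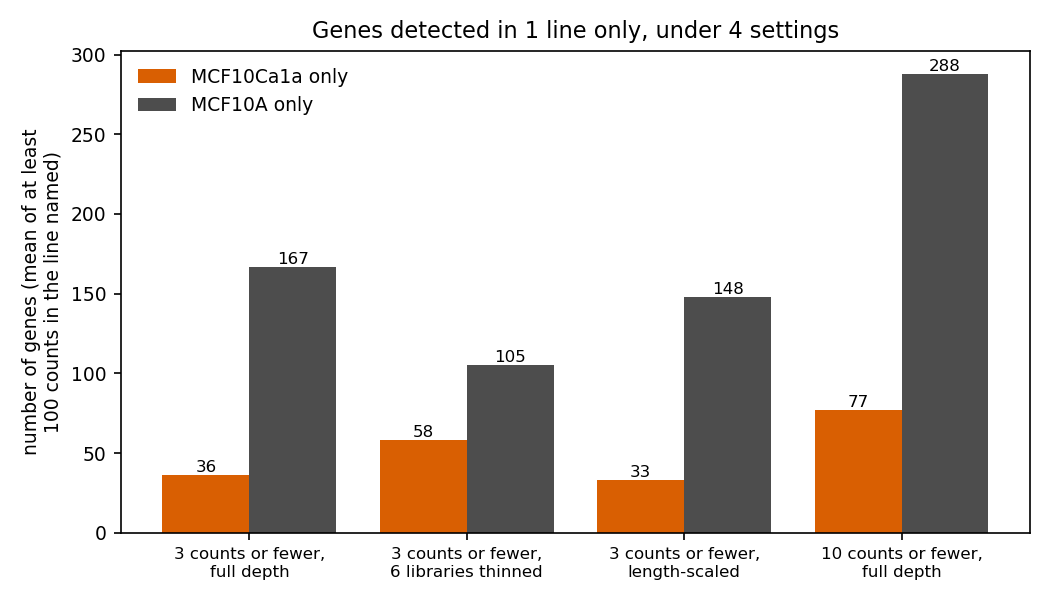
Number of genes detected in only MCF10Ca1a (orange) or only MCF10A (grey) under 4 settings, as bars from 0: at most 3 counts in every library of the other line at full depth (36 and 167), on length-scaled counts (33 and 148), after thinning the 6 libraries to equal totals (58 and 105), and at most 10 counts (77 and 288). MCF10A has the larger number in each setting.

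Of the 167 genes found in MCF10A only, 24 were zinc finger genes with a ZNF symbol, and 15 of the 24 (12 of 21 on chromosome 19) also met the rule after thinning. Of 437 tested ZNF genes, which mostly encode DNA-binding repressors, 180 were higher and 199 lower, with a median log2 change of -0.08 that changed sign by limma on TPM (0.01 and 0.03). The 24 were 5.49% of the family, and the 15 were 3.43%, against 0.991% of all genes tested at full depth. On chromosome 19, where these genes stand in clusters, 98 of 202 were higher and 77 lower, 10 were higher and 39 lower at least 8-fold, and 21 were found in MCF10A only (10.4%). On the other chromosomes 82 of 235 were higher and 122 lower, 4 were higher and 12 lower at least 8-fold, and 3 were found in MCF10A only (1.28%). ZNF558 had 684, 835 and 832 counts in MCF10A and 0 in all 3 MCF10Ca1a libraries, at least 133-fold lower. ZNF229 rose from 34, 27 and 23 counts to 469, 405 and 448 counts. Zinc finger paralogs are alike in sequence, so the split of shared reads between them is uncertain.

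Neighbouring genes were called in the same direction over long runs. Runs were taken over tested protein-coding genes in GENCODE 29 order on GRCh38 and picked by their calls, so the values of their members are a description. There were 20 runs of at least 10 genes higher and 15 of at least 10 lower. The longest lower run held 22 genes from ZNF14 to POP4 on chromosome 19 (chr19:19710471-29617237, 9.91 Mb), of which 20 were ZNF genes and 17 lower at least 2-fold. ZNF14 had 194, 261 and 345 counts in MCF10A and 0 in all 3 MCF10Ca1a libraries, and 11 of the ZNF genes of the run had at most 3 counts in every MCF10Ca1a library. The median log2 change of the run was -6.06 as fitted and -2.58 with genes at the floor set to their bound. POP4, a subunit of ribonuclease P at its end, fell by 0.76.

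On the long arm of the same chromosome, 16 ZNF genes from ZNF283 to ZNF233 (chr19:43827292-44305046, 0.478 Mb) were all higher, 10 of them at least 2-fold, with a median log2 change of 1.46, though ZNF283 lost its call without a filter on low counts. ZNF404 in this run stood at 0.298, 0.359 and 0.237 TPM in MCF10A and 5.59, 6.57 and 6.26 TPM in MCF10Ca1a. The longest higher run held 23 genes from UNC5B to PPP3CB on chromosome 10 (chr10:71212570-73496024, 2.28 Mb), with changes from 0.34 to 4.10, a median of 2.02 and 16 genes at least 2-fold higher. UNC5B, a netrin receptor, stood at 2.57, 1.84 and 1.72 TPM against 23.6, 23.8 and 22.9 TPM, and PPP3CB, a calcineurin catalytic subunit, rose by 0.45. PSAP and P4HA1, described above, lie in this run. A lower run of 18 genes on chromosome 2 from ERICH2 to SP3 (chr2:170783786-173965702, 3.18 Mb) had a median of -0.88 and holds ITGA6. SP3, a GC-box factor, fell by 0.49 and ERICH2 by 1.15. Of the runs, 1 on chromosome 17 was picked after its values were seen because it holds ERBB2: 13 genes from RPL19 to ORMDL3 (chr17:39200283-39927601, 0.727 Mb) were higher, 12 of them at least 2-fold. ERBB2 stood at 15.2, 10.6 and 9.22 TPM against 29.5, 29.2 and 28.7 TPM, and GRB7, an adaptor next to it, at 4.85, 4.04 and 4.05 TPM against 49.1, 51.5 and 48 TPM. DNA copy number of these regions was not analysed here, and its part in the runs was not tested.

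**Figure D4:**
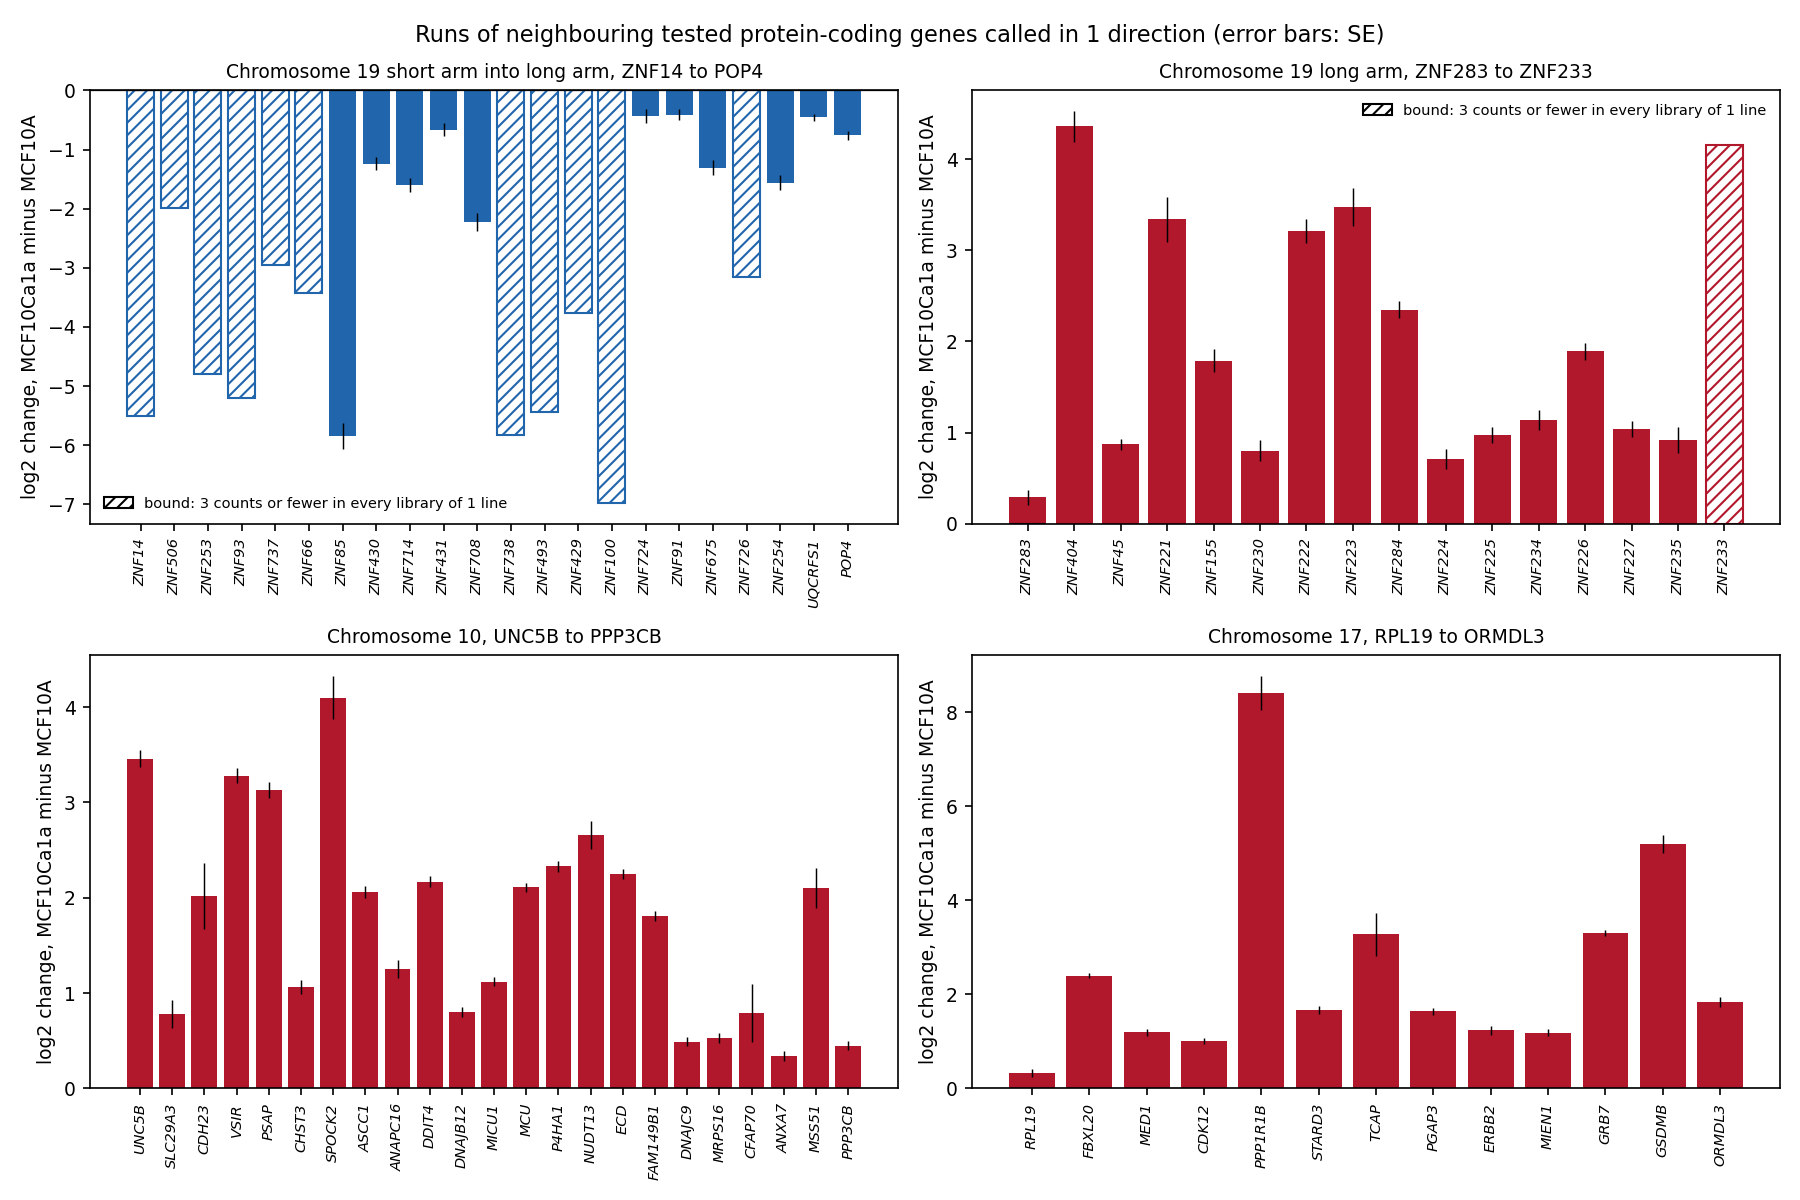
Log2 change, MCF10Ca1a minus MCF10A, with its SE, of each tested protein-coding gene in 4 runs on chromosomes 19, 19, 10 and 17, in genome order. Hatched bars are genes with at most 3 counts in every library of 1 line, drawn at their bound and with no error bar. In the run from ZNF14 to POP4, 11 of 22 bars are hatched, and the bars of chromosome 10 lie between 0.34 and 4.10.

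Over whole chromosomes the shares called higher and lower were uneven. Chromosome 20 had 56.2% of its tested genes higher and 27.9% lower, chromosome 9 56% and 28.5%, chromosome 19 52.6% and 31.6%, and chromosome 17 51.4% and 29.4%. Chromosome 8 had 26.8% higher and 55.5% lower, chromosome 12 28.9% and 53.1%, chromosome 13 29.5% and 52.7%, and chromosome 4 31.5% and 52%. The median log2 change ran from -0.41 on chromosome 8 to 0.44 on chromosome 20. RAD21 and ESCO2 are among the lower genes of chromosome 8 and PLEC and KIF13B among the higher ones, so both directions occurred on it. On chromosome 20, BMP2, ACSS2 and SNAI1 rose while PCNA and DNMT3B fell.

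**Figure D5:**
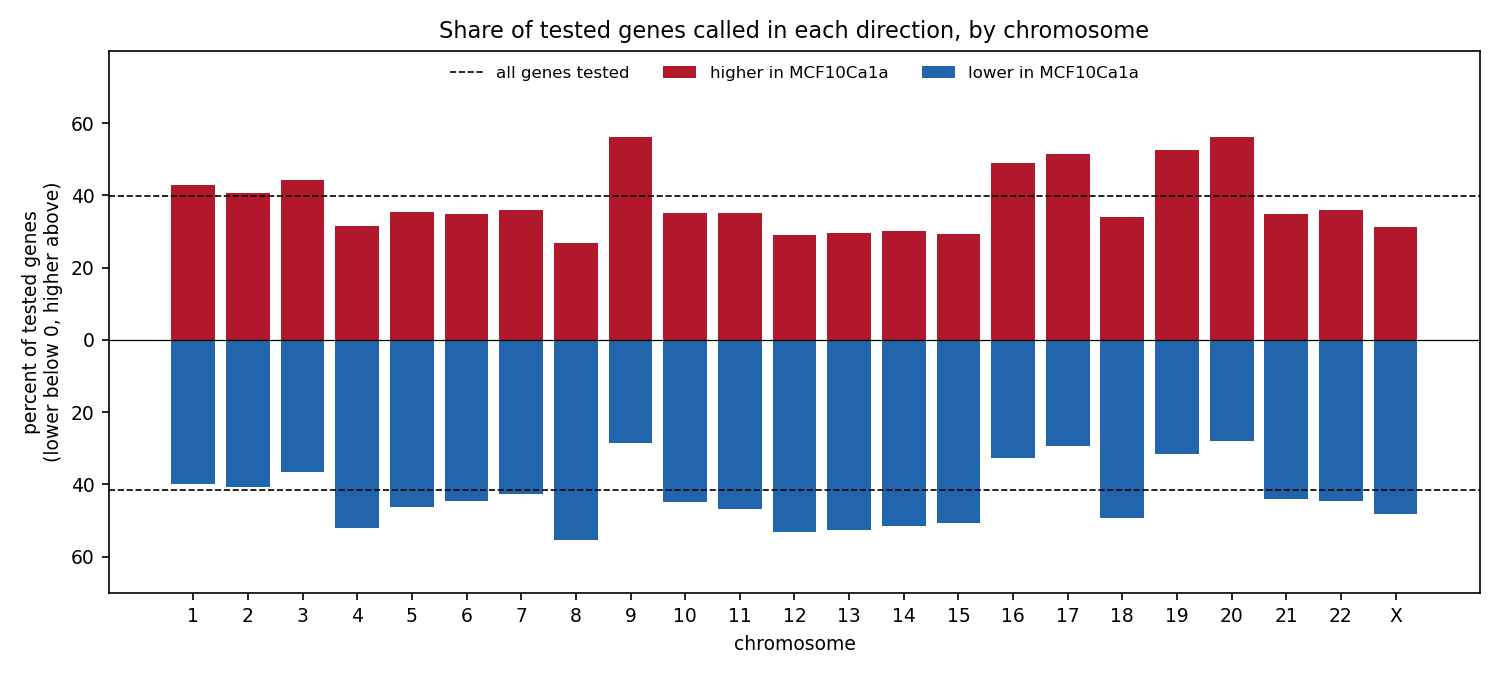
Percent of tested genes higher (red, above 0) and lower (blue, below 0) in MCF10Ca1a at an adjusted p of 0.05, for chromosomes 1 to 22 and X, with dashed lines at the values for all genes tested (39.8% and 41.5%). Chromosomes 20, 9, 19 and 17 reach farthest over the upper line and chromosome 8 reaches 55.5% lower.

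The size and direction of change also went with the kind and level of a gene. Of 1869 long noncoding genes, 45.4% were higher and 28.6% lower, with a median log2 change of 0.36, against 39.8% and 45% of 13342 protein-coding genes, with a median of -0.08. A change of at least 2-fold was found for 63.8% of genes with a mean under 1 TPM and for 24.3% of those over 100 TPM. A gene of low mean can pass the filter on counts through the line where it is high. The filter itself can thus raise the share among low genes, and its part was not tested.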

How the data were processed

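Polyadenylated RNA of the lines was sequenced with a stranded Illumina kit, per the labels' protocols. Salmon and the build hg38 are named, with no version, in the submitters' processing notes, and the annotation is not given in the sources used here. The authors deposited estimated counts per gene (used for the tests, rounded to whole numbers), length-scaled and scaled estimated counts (alternatives) and TPM (used as deposited for levels). Columns were matched to libraries by name.

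Genes with 10 or more counts in at least 3 of the 6 libraries were tested with edgeR 4.0.16 in R 4.3.3 (TMM, glmQLFit and glmQLFTest, Benjamini-Hochberg at 0.05 over all genes). The F statistic of each gene gave the SE of its log2 change. A line with 3 or fewer counts of a gene in every library is at the floor for it. Folds there take 3 counts per library as its level. They are lower bounds for the counts observed and hold no allowance for counting error. The members, lists and families were chosen with earlier results of these data known. No set test was run: lists are described by counts and medians. Named genes were the key members of the lists, the 2 called members of each list or family with the largest rise and the 2 with the largest fall among genes that averaged 100 counts or more in the higher line, the 6 largest rises and 6 largest falls in TPM, the 8 most abundant genes found in 1 line only, and the ends of the 2 longest runs per direction. Genes outside this rule are said to be so where they appear, and some that it names are left out of the text. Positions are from GENCODE 29 on GRCh38 by Ensembl identifier (16219 of the tested genes), and promoters from RefSeq. In simulated data with 200 of 16439 genes changed, edgeR recovered 33, 42, 50 and 50 of 50 genes changed 1.5-, 2-, 4- and 8-fold with 17 false calls, and made 0 calls with no gene changed. DESeq2 1.42.0 recovered 171 of the 200 with 24 false calls. Limma 3.58.1 and glmTreat were not tested this way. Few genes were changed in the simulated data, while 81.3% were called in the real data. The simulation therefore cannot say how the tests do where most genes change. Alternatives were other size factors, filters, count tables and tools, TPM with pseudocounts of 1 and 0.1, all 9 libraries in 1 fit, thinning, a replicate block and each library left out.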

Additional observations from a re-analysis of the deposited data

How the results depend on the processing

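Over 19 alternatives to the test, the numbers of genes higher and lower stayed within 1.5 times the reported ones. Without each library in turn they were 6382 to 6809 higher and 6675 to 7291 lower, with 7063 to 7165 changed at least 2-fold. The 2-fold count was 4423 with limma on log2(TPM + 1), 2461 higher and 1962 lower, and 4466 without a filter. In both, the pseudocount shrinks the change of low genes by construction. The count was 5817 where glmTreat tested against a fold. The share of calls that were higher ran from 46.9% to 55.6%, against 48.9% as reported. Without a filter on low counts, the log2 changes of the genes tested shifted by -0.14 at the median, and on TPM by 0.09.

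Genes found in 1 line only numbered 58 in MCF10Ca1a and 105 in MCF10A after thinning, and 77 and 288 at 10 counts or fewer. Leaving out a library gave 37 to 45 and 164 to 186. When all genes with a position were ordered, not only protein-coding ones, the longest lower run was 13 genes and the longest higher run was 18, from ZNF283 to ZNF233 on chromosome 19 in place of chromosome 10.

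Of 244 genes named, 226 kept their direction and their side of the threshold in every alternative run. CENPN reversed on TPM, to 0.10 and 0.11 (limma adjusted p of 0.136 to 0.141). The median of ABC transporters reversed on scaled counts, to -0.13. Medians of desmosome, WNT, EGFR family, Polycomb, epidermal and glycolysis lists lie near 0 and changed sign between alternatives. Small medians also moved: those of TGF-beta and BMP, respiratory chain, cytosolic ribosomal protein and ZNF genes ran from -0.29 to -0.03, -0.29 to -0.06, -0.25 to -0.02 and -0.22 to 0.03. Other medians that moved by over 1.5 times include, without a filter on low counts, 0.27 for RAS and MAPK output, 0.12 for Notch, 0.20 for interferon-stimulated, 0.15 for HLA class I, 0.15 for lysosome and 0.19 for tRNA synthetase genes and -0.39 for H3K9 and HP1 genes. On log2(TPM + 1) they were -0.14 for H3K9 and HP1 genes and -0.22 for SWI/SNF genes, with 0.50 for Notch on log2(TPM + 0.1), and on length-scaled counts -0.64 for p53 targets. By limma on TPM without a filter, lower members fell in number from 17 to 11 for TGF-beta and BMP genes, 16 to 10 for heat shock genes, 17 to 11 for lysosome genes and 5 to 3 for tRNA synthetases. Without a filter on low counts, 46 ribosomal protein genes were lower and 2 heat shock genes higher. On scaled counts 3 luminal markers were lower. The cause was not tested.

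Same-numbered replicates did not deviate together (r of -0.0538, 0.0856 and -0.15), so the number is not taken to pair the libraries. With the replicate block there were 6579 genes higher, 6857 lower and 7090 changed at least 2-fold. Depth limits the comparison at low levels: MCF10Ca1a libraries held 32.9 to 35.2 M counts.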

Other observations

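Some gene families lie outside the lists of the report. Of 22 HOX genes tested, 8 were higher and 12 lower in MCF10Ca1a, with a median log2 change of -0.60. HOXA7 went from 15, 13 and 16 counts to 156, 148 and 151 counts and HOXB9 from 13, 16 and 10 to 152, 114 and 148. HOXC5 and HOXB6 had 247, 171 and 224 and 159, 164 and 180 counts in MCF10A and 0 in all 3 MCF10Ca1a libraries, at least 36.4-fold and 28.5-fold lower. HOXB6 and HOXB9, which lie in 1 cluster on chromosome 17, therefore moved in opposite directions.

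Enzymes of xenobiotic and retinoid metabolism differed gene by gene. CYP1A1, a target of the aryl hydrocarbon receptor, rose from 0.399, 0.242 and 0.289 TPM to 5.61, 6.02 and 5.46 TPM, while CYP1B1, another target of that receptor, fell from 15.2, 12.9 and 11.1 TPM to 0.999, 0.974 and 0.795 TPM. ALDH1A3, which makes retinoic acid, stood at 75.5, 65.1 and 56.8 TPM against 363, 364 and 362 TPM. UGT1A6, a glucuronosyl transferase, stood at 0.935, 0.978 and 1.03 TPM against 80.7, 85.9 and 78.9 TPM. The UGT1A genes share their last exons, so the share of reads that belongs to UGT1A6 is uncertain. SLC6A14, an amino acid transporter, rose from 22, 29 and 19 counts to 3070, 3047 and 3091, and SLC7A2, a cationic amino acid transporter, fell from 3963, 3774 and 3695 counts to 17, 12 and 14. The gelatinases MMP9 and MMP2 had 1090, 915 and 936 and 715, 582 and 586 counts in MCF10A and 3, 3 and 4 and 13, 15 and 22 in MCF10Ca1a, log2 changes of -7.20 and -4.26. RPL39L and RPL22L1, paralogs of ribosomal proteins, changed by 3.59 and -3.21, in opposite directions.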
